A study of Daphnia magna with 2 samples.

Results

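The genes described here serve the secretory pathway, the route by which a cell folds proteins in the endoplasmic reticulum (ER) and ships them to the Golgi and beyond. They were chosen by name: 49 of the 33957 genes in the deposited lists carry a human symbol that begins with SEC and a digit, SSR, SRP, SPCS, PDIA, TMED, a coatomer stem (COPA, COPB, COPE, COPG or COPZ) or RPN, or that reads DDOST, CALR, CANX, HSPA5, KDELR1 or KDELR2. Of these, 42 have a known role in the pathway. The other 7 share only the letters: 5 genes named SEC14L2/CG13893 (a lipid-binding protein family), SRPK2 (a kinase of splicing factors) and SSRP1 (a histone chaperone). Genes are written with their human and fly symbols, and the roles given below are known from mammals, flies and yeast.

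The study applied inDrops, a droplet method that marks each captured transcript with the barcode of its droplet and a molecular tag (UMI), to the water flea Daphnia magna. It deposited 2 samples, each of whole animals kept by a standard laboratory protocol and dissociated with 4 mg/ml collagenase. The mixed sample pooled males, females, young and old animals, and its barcodes carry 7 library codes (MY1, MY2, FYB, FYH, FO1, FO2 and F4W). The young sample was named for young animals, and its barcodes carry 3 codes (CH1, CH2 and Y2). The labels do not spell out the codes, so none was assigned here to a sex, an age or a part of the body. With 1 sample per group there is no replicate check and no test between the samples. All intervals are exact 95% intervals that cover counting error only, and neither cells nor codes are replicates.

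A protein bound for secretion is recognised by the signal recognition particle, threaded through the SEC61 channel, cut by signal peptidase and given its first sugars by oligosaccharyltransferase. Chaperones such as BiP (HSPA5), calreticulin and the protein disulfide isomerases then fold it. COPII coats carry it out of the ER, COPI coats bring escaped ER residents and empty receptors back, and p24 (TMED) and KDEL receptors sort the cargo. Cells that build basement membrane, the sheet of laminin and type IV collagen that underlies tissues, are heavy users of this route, and papilin is a protein of that sheet.

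Barcodes with at least 500 UMIs were kept: 2253 in the mixed sample with 2779211 counts, and 2099 in the young sample with 2314350 counts. Median depth per kept barcode was 940 UMIs (mixed) and 829 UMIs (young). Levels are CPM, counts scaled to a total of 1000000, of the summed counts of the kept barcodes. They were not corrected for gene length, so a level is compared between samples, codes or barcodes and not between genes. Code F4W rested on 41 barcodes and FO1 on 87, which makes single genes there imprecise. The photoreceptor genes on a fixed marker list summed to 12793 CPM in code FYH, against 311 to 618 CPM in the other mixed codes and 576 to 1136 CPM in the young codes.

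The secretory genes took 0.725% of all counts in the mixed sample and 0.608% in the young sample. Their summed level was 7253 CPM (7153 to 7354) in the mixed sample and 6077 CPM (5977 to 6179) in the young sample, a ratio of 1.19 (1.17 to 1.22). Among the mixed codes the sum was 6412 CPM in F4W, 7577 in FO1, 7029 in FO2, 6579 in FYB, 6897 in FYH, 8268 in MY1 and 8389 in code MY2. Among the young codes it was 6608 CPM in CH1, 6474 in CH2 and 4482 in Y2. Codes MY1 and MY2 stood highest and Y2 lowest, while the other mixed codes and the remaining young codes lay within one range. FYH lay there with COPA counted in: COPA gave 436 of its 1501 counts (2004 of 6897 CPM), and 10 barcodes held 369 of those 436. Over the 42 genes with a pathway role the ratio was 1.22 (1.19 to 1.25). A few genes supplied much of the sum: calreticulin gave 11.9% of these counts in the mixed sample and 16.0% in the young sample, and the 5 genes with most counts gave 39.6% in the mixed sample and 44.7% in the young sample.

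**Figure D1:**
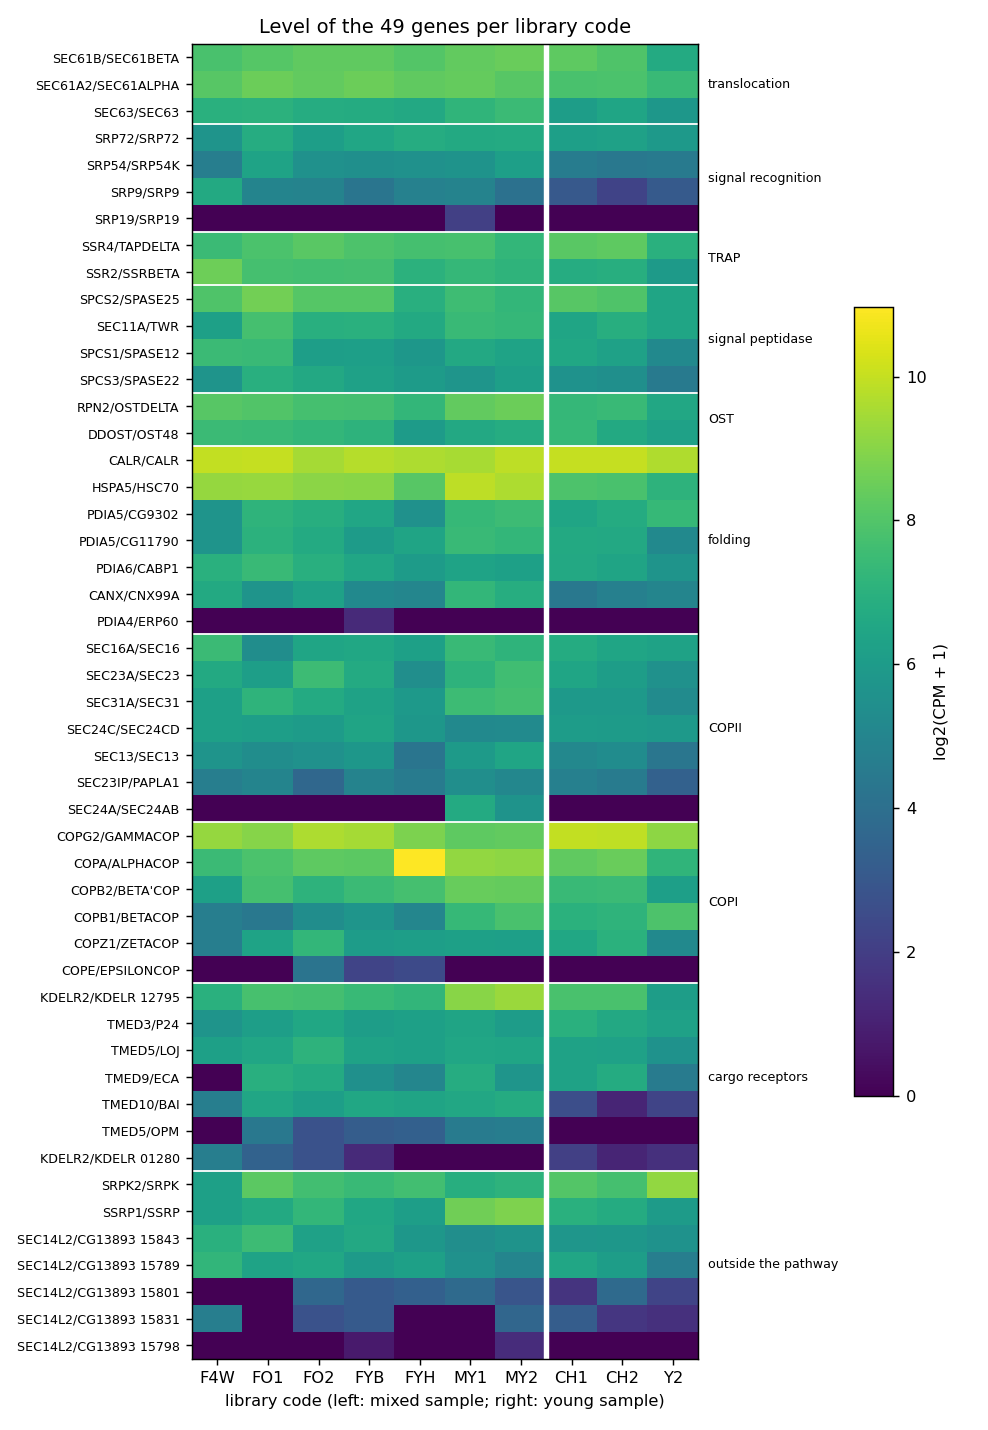
Level of each of the 49 genes, as log2(CPM + 1), in kept barcodes of every library code, with the 7 mixed codes left of the white line and the 3 young codes right of it, and genes grouped by role (TRAP, translocon-associated; OST, oligosaccharyltransferase). CALR/CALR is bright in every column, COPA/ALPHACOP reaches 2004 CPM in FYH, and SEC24A/SEC24AB appears in MY1 and MY2 alone.

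The ratio between the samples depends on how the counts are scaled. The median ratio over all 8011 tested genes (at least 50 counts over both sums) was itself 1.44, or 0.52 on the log2 scale, and that of the 41 tested secretory genes was 1.39. When the sums were scaled by the median ratio between them, in place of their totals, the summed secretory level was 0.914-fold (0.895 to 0.934) in the mixed against the young sample. Ratios below are by totals and are best read against the median of 1.44.

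Scaled by totals, 7 of 41 secretory genes exceeded 2-fold in favour of the mixed sample and 0 in favour of the young sample, where 49.6% of all tested genes passed in either direction (32.8% higher and 16.9% lower). By totals, the share of secretory genes past 2-fold was thus below that of genes at large. With median-ratio scaling 5 were higher and 3 lower, a count given without the all-gene share at that scaling. The lowest mixed code exceeded the highest young one for 9 of the 41 genes, against 11% of all tested genes, and the reverse held for 0 of them, against 10.9%. The 9 were SEC61A2, SEC63, SSR2, SPCS3, SRP54, SRP9, CANX, HSPA5 and TMED10.

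Of the channel genes 3 of 3 were tested and 0 passed 2-fold, and of the genes of the signal recognition particle 3 of 4 were tested and 2 were at least 2-fold higher in the mixed sample. SEC61A2/SEC61ALPHA (DAPMA1EVG022905), the pore of the channel, was at 334 CPM in the mixed sample and 214 CPM in the young sample, and ran from 274 to 365 CPM in the mixed codes and from 173 to 230 CPM in the young codes. SEC61B/SEC61BETA (DAPMA1EVG014222), its small tail-anchored subunit, was at 317 CPM in the mixed sample and 237 CPM in the young sample, and its codes overlapped. All 3 translocation genes had ratios above 1 (median 1.56), SEC61B with 1.34 under the median of all genes. SRP54/SRP54K (DAPMA1EVG012655), the subunit that binds the signal peptide, was 2.42-fold (1.74 to 3.40) higher at 52.2 CPM in the mixed sample against 21.6 CPM in the young sample. SRP9/SRP9 (DAPMA1EVG013555), which with SRP14 makes up the part that halts translation, had 61 counts in the mixed sample and 14 in the young sample, a ratio of 3.63 (2.01 to 7.03). SRP72/SRP72 (DAPMA1EVG023620), the scaffold of the particle, was at 93.9 CPM in the mixed sample and 71.3 CPM in the young sample, a ratio of 1.32 (1.08 to 1.61) under the median of all genes. With median-ratio scaling SEC61B was at 1.02 and SRP72 at 1.01. SRP19 had 1 count in the mixed sample and 0 in the young sample.

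Of the 8 genes that act on the emerging chain 0 passed 2-fold, and their ratios ran from 0.838 to 1.87. Both translocon-associated genes were tested: SSR2/SSRBETA had 1.79-fold (1.53 to 2.10) and SSR4/TAPDELTA (DAPMA1EVG019847) 0.838-fold (0.747 to 0.941) of the young level in the mixed sample. The 4 genes of signal peptidase, which removes the signal peptide, had ratios between 1.02 and 1.87, the highest in SPCS3/SPASE22 (1.45 to 2.41). The gene of that group with most counts, SPCS2/SPASE25 (DAPMA1EVG010462), was at 229 CPM in the mixed sample and 224 CPM in the young sample, a ratio of 1.02 (0.908 to 1.15) that turned to 0.782 with median-ratio scaling. Of the oligosaccharyltransferase genes, RPN2/OSTDELTA (DAPMA1EVG017957) was at 252 CPM in the mixed sample and 149 CPM in the young sample (1.70, 1.49 to 1.94), and DDOST/OST48 was at 124 CPM in the mixed sample and 121 CPM in the young sample.

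Among the folding genes, BiP moved apart from calreticulin. HSPA5/HSC70 (DAPMA1EVG011329), the main Hsp70 chaperone of the ER, was at 599 CPM in F4W, 612 in FO1, 528 in FO2, 518 in FYB, 280 in FYH, 930 in MY1 and 793 in MY2, against 241 in CH1, 227 in CH2 and 137 in Y2. Each mixed code lay above each young one, and the summed ratio was 2.88 (2.60 to 3.19), or 2.21 with median-ratio scaling. CALR/CALR (DAPMA1EVG020149), the calcium-binding lectin chaperone, was at 720 to 1014 CPM in the mixed codes and 821 to 1022 CPM in the young codes. Those ranges overlapped, and its ratio was 0.883 (0.833 to 0.936). CANX/CNX99A (DAPMA1EVG028157), the membrane-bound relative of calreticulin, was at 69.4 CPM in the mixed sample and 24.6 CPM in the young sample, a ratio of 2.82 (2.09 to 3.86). PDIA6/CABP1 (DAPMA1EVG019399), a disulfide isomerase, was at 88.9 CPM in the mixed sample and 81.7 CPM in the young sample, a ratio of 1.09 (0.897 to 1.32), or 0.834 with median-ratio scaling. PDIA4 had 2 counts in the mixed sample and 0 in the young sample.

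In the COPII coat all 7 genes were tested and all 7 had ratios above 1 (median 1.80), but SEC24C, SEC16A and SEC23IP lay under the median of all genes. SEC31A/SEC31, of the outer cage, was 2.21-fold (1.79 to 2.73) higher in the mixed sample. SEC24A/SEC24AB (DAPMA1EVG019750), one of the cargo adaptors, had 62 counts in the kept mixed barcodes, all in codes MY1 (32) and MY2 (30), and 0 in any deposited young barcode. Against a floor of 3 counts it was at least 17.2-fold higher in the mixed sample. Its relative SEC24C/SEC24CD (DAPMA1EVG033286) was at 35.9 CPM in MY1 and 37.3 in MY2, against 55.1 to 83.7 CPM in the other mixed codes and 59.1 to 66.6 CPM in the young codes. The 2 codes with SEC24A counts were thus the lowest for SEC24C. SEC16A/SEC16 (DAPMA1EVG011545), the organiser of ER exit sites, was at 108 CPM in the mixed sample and 92.9 CPM in the young sample.

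The COPI coat was the one role whose median ratio by totals was below 1 (0.802 over 5 tested genes). COPG2/GAMMACOP (DAPMA1EVG033467) was at 599 CPM in F4W, 502 in FO1, 778 in FO2, 716 in FYB, 441 in FYH, 300.1 in MY1 and 323 in MY2, against 988 in CH1, 971 in CH2 and 545 in Y2. It was lowest in MY1 and MY2, the codes where the sum of all the genes was highest, and its ratio was 0.631 (0.590 to 0.674), or 0.483 with median-ratio scaling. COPB1/BETACOP (DAPMA1EVG015039) was at 20.1 to 51.3 CPM in 5 mixed codes, 160 in MY1 and 226 in MY2, against 129 CPM in CH1, 139 in CH2 and 240.1 in Y2. Its ratio of 0.623 (0.531 to 0.731) dropped to 0.393 without code MY2. In young barcodes below 500 UMIs COPB1 was at 233 CPM, above its level of 158 CPM in kept ones, so the young level is not above that of the smallest barcodes. COPA/ALPHACOP (DAPMA1EVG023120) was 1.80-fold (1.64 to 1.97) higher in the mixed sample, and 1.35-fold without FYH. COPE had 9 counts in kept mixed barcodes and 0 in young ones.

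TMED10/BAI (DAPMA1EVG015378), a p24 cargo receptor, had the largest ratio among members with counts in both samples. It was at 24.95 CPM in F4W and 69.7 to 107 CPM in the other mixed codes, against 5.28 CPM in CH1, 1.19 in CH2 and 3.81 in Y2. With 255 counts in the mixed sample and 8 in the young sample, the ratio was 26.5 (13.3 to 62.2). Whether the matrices were processed alike is not given in the sources used here, so for this gene and for those at or near 0 in the young sample processing and sample cannot be told apart. The related genes went otherwise: TMED3/P24 (DAPMA1EVG020751) was at 71.2 CPM in the mixed sample and 103 CPM in the young sample (ratio 0.693, 0.571 to 0.840), and TMED9/ECA (DAPMA1EVG015252) at 58.3 CPM in the mixed sample and 76.1 CPM in the young sample (0.767, 0.615 to 0.954). KDELR2/KDELR (DAPMA1EVG012795), the receptor that returns ER residents, was at 525 CPM in MY1 and 647 in MY2, against 125 to 221 CPM in the other mixed codes and 68.6 to 226 CPM in the young codes. Its ratio of 1.67 (1.49 to 1.88) was 1.17 without MY2.

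Some genes had no count at all in the young sample. Of the 49, 6 were at 0 over all 442368 deposited young barcodes: SEC24A, TMED5/OPM, COPE, PDIA4, SRP19 and 1 SEC14L2 gene. Among genes with at least 10 counts in all deposited mixed barcodes, 4 of 47 secretory genes had none in the young sample, against 7.97% of all such genes. The 2 matrices list the same genes, and how each was aligned is not given in the sources used here.

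Genes that share only the letters behaved as a mixed set. SRPK2/SRPK (DAPMA1EVG026673) had the lowest ratio of the 41, 0.516 (0.458 to 0.580), with 581 CPM in Y2 against 263 in CH1 and 215 in CH2, and 0.681 without Y2. SSRP1/SSRP (DAPMA1EVG013593) was at 385 CPM in MY1 and 461 in MY2, against 68.9 to 151 CPM in the other mixed codes and 64.8 to 124 CPM in the young codes. Of the 5 SEC14L2 genes, 2 passed the count minimum, with ratios of 0.865 and 1.502.

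Depth moved with the summed level. In the young sample it was 4711 CPM in barcodes of 500 to 1000 UMIs, 6450 CPM from 1000 to 2000, and 7503 CPM from 2000. In the mixed sample the same bins gave 6562, 7393 and 7722 CPM. Barcodes below 500 UMIs, where free RNA and small cells cannot be told apart, summed to 6079 CPM in the mixed sample and 3374 CPM in the young sample. Of the members with enough counts, 1 of 44 was at least 2-fold above its kept level there in the mixed sample, against 5.62% of all genes, and 2 of 40 in the young sample, against 17.6%. In the young sample shallow and deep barcodes thus differed far more than in the mixed sample, and the gap between the samples was smaller at 1000 UMIs and above (ratio 1.09). Y2 had the lowest median depth of the young codes, 674 UMIs against 868 in CH1 and 911 in CH2. Y2 also had the lowest sum within each depth bin. From 500 to 1000 UMIs it was at 3050 CPM, against 5294 in CH1 and 5616 in CH2. From 1000 to 2000 UMIs Y2 was at 5210 CPM, against 6964 in CH1 and 6433 in CH2. From 2000 UMIs Y2 was at 6825 CPM, against 7829 in CH1 and 7481 in CH2. The part of depth in the differences between samples was not tested.

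**Figure D2:**
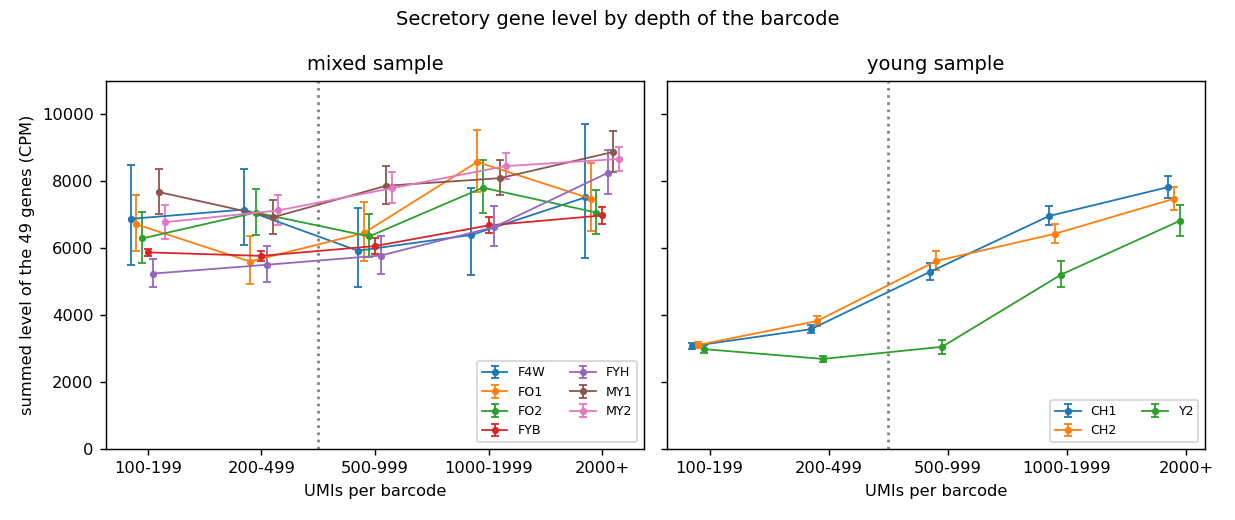
Summed level of the 49 genes in CPM against UMIs per barcode, for each code of the mixed sample (left) and the young sample (right), with exact 95% counting intervals and a dotted line at the 500 UMI minimum. The 3 young codes together lie at 3062 CPM from 100 to 200 UMIs and at 7503 CPM from 2000 UMIs, and the mixed codes together at 5963 and 7722 CPM.

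Papilin-positive barcodes were those with at least 1 UMI of any of 6 genes whose fly symbol is PPN (PAPLN, ADAMTSL5, and a pair each of SPINT2 and SPINT3 genes). They numbered 865 of 2253 kept barcodes (38.4%, 36.4 to 40.4) in the mixed sample and 470 of 2099 (22.4%, 20.6 to 24.2) in the young sample. Thinned to 500 UMIs each, 30.8% were positive in the mixed sample and 17.3% in the young sample. PAPLN/PPN (DAPMA1EVG018391), the gene that also carries the human papilin symbol, marked 264 mixed and 210 young barcodes. These were 11.7% of the kept mixed and 10% of the kept young barcodes. Thinned to 500 UMIs, PAPLN alone marked 8.12% (7.03 to 9.33) in the mixed and 8.29% (7.15 to 9.55) in the young sample. The gap between the samples was thus not seen with PAPLN alone after thinning. Papilin counts themselves were left out of every level below.

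Papilin counts were also found in the smallest barcodes, where free RNA and small cells cannot be told apart. The 6 genes together were at 3568 CPM in kept mixed barcodes and 2832 CPM in those below 500 UMIs, and at 1573 CPM in kept and 288 CPM in smaller young barcodes. PAPLN alone was at 895 CPM in kept and 269 CPM in smaller mixed barcodes, and at 1178 CPM in kept and 131 CPM in smaller young ones. Barcodes with at least 2 UMIs of digestive markers were positive in 19.7% of 218 cases in the mixed sample (median 1893 UMIs) and in 14.2% of 127 cases in the young sample (median 2220 UMIs). Thinned to 500 UMIs, those shares were 10.6% in the mixed sample and 5.51% in the young sample. For PAPLN alone they were 5.96% in the mixed sample and 7.09% in the young sample before thinning, and 3.67% (mixed) and 3.94% (young) after it. Digestive markers gave the lowest shares of the marker classes counted. The genes of that list with most counts were CTSS/CP1 and CTSL/CP1 in the mixed and CTSS/CP1 and CFD/BETATRY in the young sample. Only 3 of its 14 genes reached the count minimum, so these barcodes are not shown to be digestive cells. Thinned likewise and with all 6 genes, barcodes with neuron markers were positive in 45.8% (mixed) and 23.6% (young). The shares were 32.0% (mixed) and 13.4% (young) with muscle markers, and 21.9% (mixed) and 14.1% (young) with photoreceptor markers. Papilin-positive is used here as a count in the barcode, not as proof that the cell made papilin. The summed level, the counts past 2-fold, the roles and the members named are also given with PAPLN alone, a definition added after seeing the data.

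Basement membrane genes together were higher in positive barcodes, though not every gene. A fixed list of 18 such genes, papilin left out, summed to 5537 CPM in papilin-positive and 2284 CPM in papilin-negative mixed barcodes, a ratio of 2.42, and to 11200 CPM in papilin-positive and 2553 CPM in papilin-negative young barcodes, a ratio of 4.39. The laminin chain LAMC1/LANB2 (DAPMA1EVG011273) was 17.2-fold higher in papilin-positive barcodes of the mixed sample and 18.2-fold higher in those of the young sample. At least 2-fold, 7 of 16 tested genes of the list were higher and 1 lower in the mixed sample, and 8 of 15 were higher and 2 lower in the young sample. COL22A1/COL4A1 was the lower one in the mixed sample (0.366-fold), and it (0.190-fold) and COL23A1/VKG (0.0911-fold) in the young sample. Set against papilin-negative barcodes, neuron markers were at 1.46-fold in the mixed sample and 1.72-fold in the young sample, photoreceptor markers at 0.432-fold (mixed) and 0.755-fold (young), and cell division markers at 0.330-fold (mixed) and 0.299-fold (young). Digestive markers were at 0.467-fold (mixed) and 0.491-fold (young), and epidermis markers at 0.532-fold (mixed) and 0.710-fold (young). Muscle markers went opposite ways, at 0.803-fold (0.737 to 0.874) in the mixed sample and 1.34-fold (1.23 to 1.46) in the young sample, and with PAPLN alone at 0.507-fold (mixed) and 1.93-fold (young). The part of these other markers in the results below was not tested, and no cell type name is given to the positive barcodes.

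The summed secretory level was 6748 CPM (6590 to 6909) in papilin-positive and 7591 CPM (7462 to 7721) in papilin-negative barcodes of the mixed sample, a ratio of 0.889 (0.863 to 0.915). In the young sample it was 6747 CPM (6534 to 6966) in papilin-positive and 5876 CPM (5763 to 5990) in papilin-negative barcodes, a ratio of 1.15 (1.11 to 1.19). By totals and with all 6 genes, the pooled positive barcodes of both samples lay at almost the same level. That did not hold by code, where mixed positives ran from 5239 CPM in FO2 to 9121 CPM in MY2, or with PAPLN alone, where positives were at 6980 CPM in the mixed sample and 7893 CPM in the young sample. The median ratio of all tested genes was 0.756 in the mixed and 0.805 in the young sample (log2 -0.40 for mixed and -0.31 for young). With median-ratio scaling the mixed ratio turned to 1.06 (1.03 to 1.09), while the young one was 1.17.

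The mixed codes did not go one way, and the PPN genes that marked their positive barcodes differed. SPINT2/PPN (DAPMA1EVG020094) marked 25 barcodes in MY1, 24 in MY2 and 1 in FO2. Those 50 barcodes were at 10528 CPM of the secretory genes. SPINT3/PPN (DAPMA1EVG029332) marked 316 mixed barcodes, with 268 in FYB and 28 in FYH. The part of this split in the ratios by code was not tested. The ratio of papilin-positive to papilin-negative barcodes was 0.915 in F4W, 0.785 in FO1, 0.689 in FO2, 0.897 in FYB and 0.700 in FYH, and 1.09 in MY1 and 1.12 in MY2. In the young codes it was 1.04 (0.983 to 1.11) in CH1, 1.19 in CH2 and 1.20 in Y2. The intervals held 1 in F4W, MY1 and CH1. In FYH, COPA alone gave 68 of the 529 positive and 368 of the 972 negative counts (719 and 3025 CPM). Of all 436 COPA counts in FYH, 369 lay in 10 barcodes, described below. The FYH ratio without COPA was not computed. With PAPLN alone, the pooled ratio was 0.953 (0.914 to 0.992) in the mixed sample and 1.35 (1.29 to 1.42) in the young sample, where it was 1.19 in CH1, 1.41 in CH2 and 1.19 in Y2. Among the mixed codes the PAPLN ratio was 0.945 in FO1, 0.702 in FO2, 0.9505 in FYB and 0.698 in FYH. In MY1 it was 1.07 (0.905 to 1.25) and in MY2 1.13 (1.05 to 1.22). These intervals held 1 in FO1, FYB and MY1, and F4W had 0 PAPLN-positive barcodes. Within depth bins of 500 to 1000, 1000 to 2000 and at least 2000 UMIs, the young PAPLN ratios were 1.38, 1.37 and 1.11, and those with all 6 genes 1.16, 1.21 and 0.988. Binned by PAPLN UMIs, the young sample was highest, at 9209 CPM (8707 to 9734), in the 97 barcodes with at least 10, against 5840 CPM in the 1889 with none. In the mixed sample 84 such barcodes were at 6390 CPM, against 7327 CPM in the 1989 with none. The young bins in between did not rise steadily. They were at 7130 CPM with 1 PAPLN UMI, 5058 CPM (4449 to 5726) from 2 to 5 and 8087 CPM from 5 to 10. The same mixed bins were at 7179, 7092 and 7606 CPM.

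**Figure D3:**
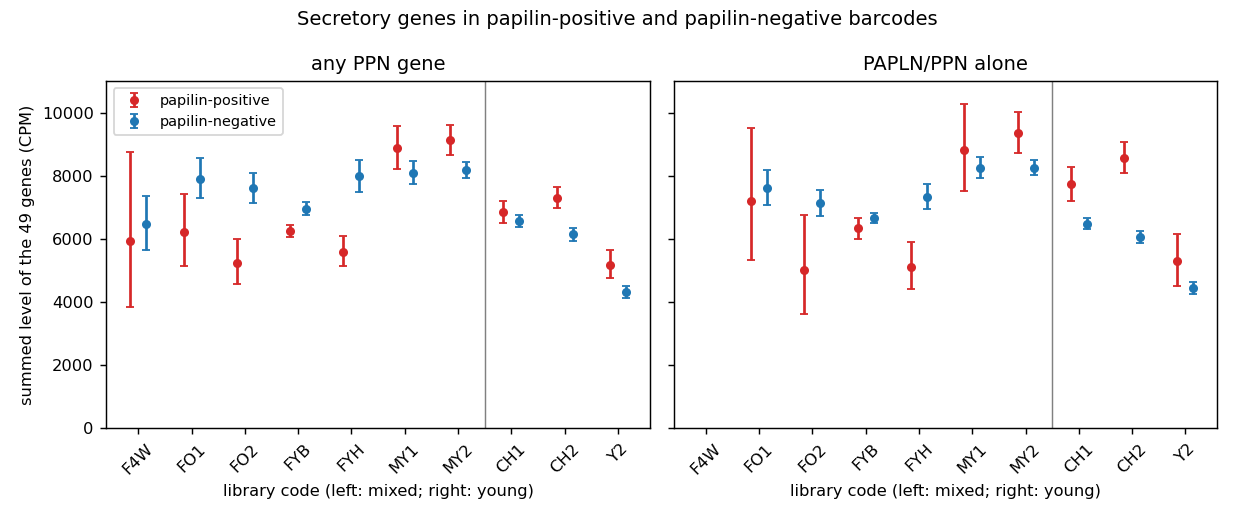
Summed level of the 49 genes in CPM in papilin-positive (red, left of each pair) and papilin-negative (blue) barcodes of each code, with exact 95% counting intervals, for any of the 6 PPN genes (left panel) and for PAPLN/PPN alone (right panel, where F4W had 0 positive barcodes). Positive barcodes lie lower in F4W, FO1, FO2, FYB and FYH in the left panel and higher in MY1, MY2 and the 3 young codes. In FYH of the left panel, COPA alone makes up 719 CPM of the positive and 3025 CPM of the negative level.

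Few single genes passed 2-fold. In the mixed sample 0 of 41 tested secretory genes were at least 2-fold higher in papilin-positive barcodes, against 8.97% of all tested genes, and 3 were at least 2-fold lower, against 18.9% (27.8% in either direction). In the young sample 1 of 37 was higher, against 8.75%, and 0 were lower, against 18.3% (27.1% in either direction). With PAPLN alone, 1 was higher, against 5.7% of all genes, and 4 lower, against 16.9% (22.6% together), in the mixed sample, and 3 were higher, against 7.88%, and 2 lower, against 26% (33.9% together), in the young sample.

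PDIA6, SSR4 and CALR, 3 genes that act on chains at the ER, had ratios and counting intervals above 1 in both samples. Their ratios were larger in the young sample. Also above 1 in both, with mixed intervals that held 1, were SEC61A2 (1.05 mixed, 1.04 young) and SEC61B (1.10 mixed, 1.22 young). The same held for SSR2 (1.105 mixed, 1.21 young) and SEC24C (1.36 mixed, 1.24 young). The young intervals held 1 too for SEC61A2 (0.844 to 1.28), SSR2 (0.899 to 1.62) and SEC24C (0.845 to 1.79). That of SEC61B (1.005 to 1.47) did not. PDIA6/CABP1 was at 108 CPM in papilin-positive and 78.0 CPM in papilin-negative barcodes of the mixed sample, a ratio of 1.39 (1.07 to 1.80), and at 132 CPM in papilin-positive and 65.7 CPM in papilin-negative young barcodes, a ratio of 2.01 (1.48 to 2.72). It was higher in positive barcodes of all 3 young codes but of 3 of 7 mixed codes: FYH, MY1 and MY2. SSR4/TAPDELTA was at 255 CPM in papilin-positive and 194 CPM in papilin-negative mixed barcodes, a ratio of 1.31 (1.11 to 1.54), and at 393 CPM in papilin-positive and 215 CPM in papilin-negative young ones, a ratio of 1.83 (1.54 to 2.17). It was higher in 6 of 7 mixed codes and in 3 of 3 young codes. CALR/CALR was at 967 CPM in papilin-positive and 802 CPM in papilin-negative mixed barcodes, a ratio of 1.21 (1.11 to 1.31), and at 1257 CPM in papilin-positive and 885 CPM in papilin-negative young ones, a ratio of 1.42 (1.30 to 1.56). Among the mixed codes it was higher in 4 of 7, with 1442 CPM in positive and 764 CPM in negative barcodes of MY2. It was lower in F4W (947 CPM positive, 1004 negative), FO1 (522 CPM positive, 1132 negative) and FO2 (487 CPM positive, 794 negative). With PAPLN alone the young ratios were larger: 3.08 (2.21 to 4.24) for PDIA6, 2.06 (1.69 to 2.51) for SSR4 and 1.85 (1.66 to 2.05) for CALR.

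Other genes had ratios above 1 in the young sample and below 1 in the mixed sample, a difference that was not tested. With PAPLN alone the young ratios were 2.02 for TMED9, 1.69 for SPCS1 and 1.97 for RPN2, and the mixed ones 0.922 for TMED9, 0.813 for SPCS1 and 0.947 for RPN2. TMED9/ECA had a ratio of 1.58 (1.13 to 2.17) in the young and 0.827 (0.584 to 1.16) in the mixed sample. SPCS1/SPASE12 (DAPMA1EVG019356), a small subunit of signal peptidase, had 1.56 (1.12 to 2.17) in the young and 0.945 in the pooled mixed sample, where 5 of 7 codes were nevertheless higher in positive barcodes, and RPN2/OSTDELTA 1.53 (1.21 to 1.92) in the young and 0.847 in the mixed sample. BiP was not among them: HSPA5/HSC70 had 0.851 (0.679 to 1.06) in the young and 0.794 (0.715 to 0.880) in the mixed sample, and with PAPLN alone 1.04 (0.781 to 1.36) in the young and 0.921 (0.796 to 1.06) in the mixed sample. In the mixed sample SEC24C/SEC24CD had 1.36 (0.997 to 1.84) and TMED10/BAI 1.15 (0.889 to 1.49), and with PAPLN alone 2.09 (1.46 to 2.96) for SEC24C and 1.44 (1.03 to 1.97) for TMED10. SEC24C was above 1 in the young sample too, with 1.24 (0.845 to 1.79), and 1.42 (0.875 to 2.21) with PAPLN alone.

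By role, folding genes summed to 1823 CPM in papilin-positive and 1384 CPM in papilin-negative young barcodes, a ratio of 1.32 (1.22 to 1.42), and to 1843 CPM in papilin-positive and 1862 CPM in papilin-negative mixed ones (0.990, 0.935 to 1.05). The translocon-associated pair had ratios of 1.64 (1.42 to 1.89) in the young and 1.21 (1.07 to 1.37) in the mixed sample. The COPII genes had 0.953 (0.802 to 1.13) in the young and 0.773 (0.691 to 0.864) in the mixed sample, and the COPI genes 1.17 (1.09 to 1.26) in the young and 0.779 (0.729 to 0.833) in the mixed sample. COPA alone gave 352 of the 1287 COPI counts in papilin-positive and 1077 of the 2810 in papilin-negative mixed barcodes. With PAPLN alone folding was at 1.73 (1.59 to 1.88) in the young and 1.12 (1.04 to 1.21) in the mixed sample, above 1 in both. The translocon-associated pair was then at 1.76 in the young and 1.21 in the mixed sample, COPII at 1.07 (0.859 to 1.33) in the young and 0.975 (0.836 to 1.13) in the mixed sample, and COPI at 1.43 in the young and 0.817 in the mixed sample.

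The lowest ratios were spread over roles. CANX/CNX99A was at 38.1 CPM in papilin-positive and 88.3 CPM in papilin-negative mixed barcodes, a ratio of 0.431 (0.295 to 0.616), with 10 counts (17.9 CPM) in papilin-positive and 47 counts (26.8 CPM) in papilin-negative young barcodes (0.665, 0.300 to 1.33). TMED5/LOJ (DAPMA1EVG015045), a p24 receptor, had 0.478 (0.345 to 0.654) in the mixed and 0.585 (0.369 to 0.894) in the young sample. SEC24A/SEC24AB had 7 counts in papilin-positive and 55 in papilin-negative mixed barcodes, a ratio of 0.217 (0.083 to 0.477), a value pooled over 7 codes although all its counts were in MY1 and MY2. Within MY1 it was at 67.8 CPM in papilin-positive and 116 CPM in papilin-negative barcodes (5 and 27 counts), and within MY2 at 13.4 CPM in papilin-positive and 60.1 CPM in papilin-negative ones (2 and 28 counts). COPA/ALPHACOP was at 343 CPM in papilin-positive and 618 CPM in papilin-negative mixed barcodes, a ratio of 0.556 (0.492 to 0.628), and at 350.1 CPM in papilin-positive and 267 CPM in papilin-negative young ones, a ratio of 1.31 (1.11 to 1.55). Of 1429 mixed COPA counts, 441 lay in 13 barcodes with at least 10 COPA UMIs, of which 2 were papilin-positive. In the young sample 114 of 663 lay in 8 such barcodes, 2 of them papilin-positive. The counting intervals do not cover this clustering. SSRP1/SSRP, one of the genes outside the pathway, was lower in positive barcodes of all 7 mixed and all 3 young codes, with ratios of 0.510 in the mixed sample and 0.549 in the young sample. SRPK2/SRPK had 0.647 (0.530 to 0.785) in the young and 1.11 in the mixed sample, and TMED3/P24 0.709 (0.499 to 0.988) in the young and 1.13 in the mixed sample. With PAPLN alone CANX was at 0.522 in the mixed and 1.03 in the young sample, TMED5/LOJ at 0.665 in the mixed and 0.626 in the young sample, and COPA at 0.662 in the mixed and 1.85 in the young sample. SSRP1 was then at 0.772 in the mixed and 0.810 in the young sample, SRPK2 at 0.869 in the mixed and 0.455 in the young sample, and TMED3 at 0.936 in the mixed and 0.746 in the young sample.

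One SEC14L2/CG13893 gene (DAPMA1EVG015801), under the count minimum, had 21 counts in papilin-positive barcodes and 1 in papilin-negative ones of the mixed sample, and 14 in papilin-positive and 1 in papilin-negative barcodes of the young sample. With PAPLN alone it had 0 in positive and 22 in negative mixed barcodes, and 1 in positive and 14 in negative young ones, so its counts lay with the other PPN genes. It was picked out after its values were seen.

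**Figure D4:**
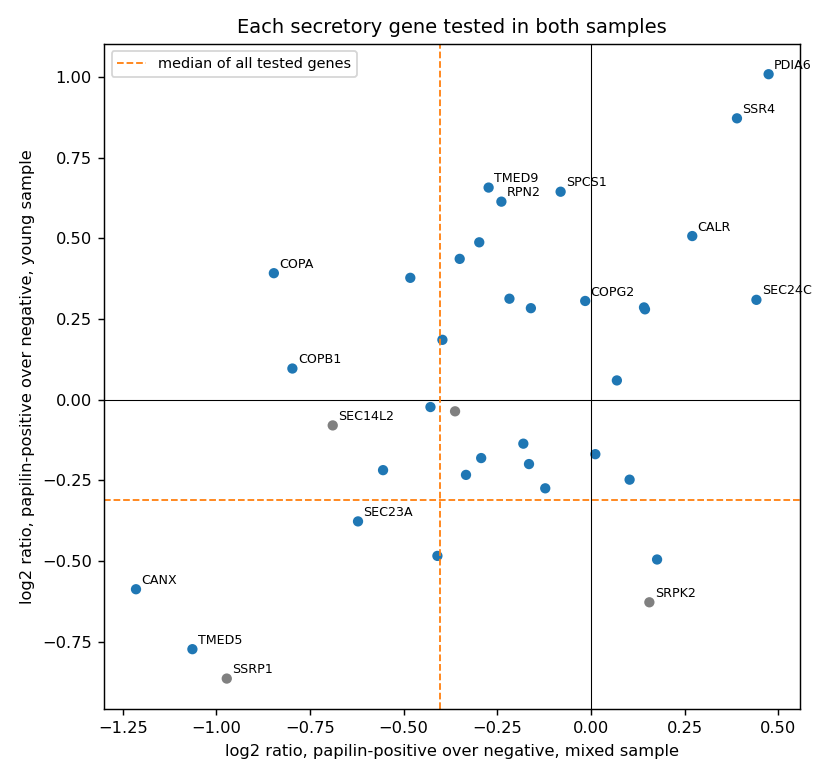
Log2 ratio of papilin-positive over papilin-negative barcodes for each secretory gene tested in both samples, in the mixed sample (horizontal) and the young sample (vertical), with genes outside the pathway in grey and dashed lines at the medians of all tested genes (-0.40 and -0.31). PDIA6, SSR4 and CALR lie to the upper right, and CANX, TMED5 and SSRP1 to the lower left.

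Other genes of the pathway, from a list that the name rule leaves out, numbered 92, of which 37 carry the symbol ERN1, the stress sensor IRE1. With them 22 of 63 tested genes exceeded 2-fold in favour of the mixed sample and 5 in favour of the young sample, against all-gene shares of 32.8% (mixed higher) and 16.9% (mixed lower). A family of that size is uncertain in its naming, so, as a choice made after seeing the values, the list is given without it. Of the remaining 43 tested, 16 exceeded 2-fold in favour of the mixed over the young sample and 0 the other way, with a median of 1.57, again beside 32.8% higher and 16.9% lower among all genes. They included PPIB/CG2852 (DAPMA1EVG016904), a prolyl isomerase, with 613 counts in the mixed sample and 0 in the young sample (at least 170-fold higher), ERP44/CG9911 (DAPMA1EVG029563), which retains thiol-bonded clients, with 1406 counts in the mixed sample and 8 in the young sample, and DERL1/DER (DAPMA1EVG029247), of ER-associated degradation, with 104 in the mixed sample and 0 in the young sample. These extreme ratios, like those of TMED10 and SEC24A, sit in a series where 7.97% of genes with mixed counts have none in the young sample. In papilin-positive against papilin-negative barcodes, 1 of 41 exceeded 2-fold upward, against 8.97% of all genes, and 6 downward, against 18.9%, in the mixed sample. In the young sample 2 of 33 did so upward, against 8.75%, and 1 downward, against 18.3%. With ERN1 kept in, 7 of 54 went upward and 6 downward in the mixed sample, beside the same all-gene shares. In the young sample 5 of 42 then went upward and 4 downward.

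The disulfide isomerase P4HB/PDI (DAPMA1EVG018662), which is also a subunit of collagen prolyl hydroxylase, was at 1832 CPM in papilin-positive and 584 CPM in papilin-negative young barcodes, a ratio of 3.14 (2.87 to 3.42), and at 1845 CPM in papilin-positive and 995 CPM in papilin-negative mixed ones, a ratio of 1.85 (1.74 to 1.98). A second gene of that name (DAPMA1EVG018915) had 0.495 (0.410 to 0.594) in the mixed sample. The collagen prolyl hydroxylase genes went both ways in the mixed sample, with a median of 0.790 over 4 tested: P4HA1/PH4ALPHAEFB (DAPMA1EVG032182) was at 2.59-fold (1.79 to 3.77) in papilin-positive against papilin-negative barcodes and P4HA2/PH4ALPHAEFB (DAPMA1EVG016946) at 0.296-fold (0.183 to 0.459). SURF4/SURF4 (DAPMA1EVG012753), a cargo receptor of the early pathway, was at 677 CPM in papilin-positive and 1686 CPM in papilin-negative mixed barcodes, a ratio of 0.402 (0.369 to 0.436). Without ERN1, the other pathway genes summed to 7587 CPM in papilin-positive and 8646 CPM in papilin-negative mixed barcodes, a ratio of 0.878, and to 6726 CPM in papilin-positive and 5533 CPM in papilin-negative young ones, a ratio of 1.22. With PAPLN alone this sum was at 1.04 (0.997 to 1.07) in the mixed sample, where the direction turned, and at 1.58 (1.51 to 1.65) in the young sample. With ERN1 kept in and all 6 PPN genes, the ratio was 0.989 (0.965 to 1.01) in the mixed and 1.25 (1.21 to 1.29) in the young sample. The ERN1 genes by themselves summed to a ratio of 1.76 (1.66 to 1.87) in the mixed and 1.36 (1.27 to 1.46) in the young sample. Their median over tested genes was 1.985 in the mixed and 0.933 in the young sample.

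COPA/ALPHACOP counts were gathered in a few barcodes. At least 10 COPA UMIs were found in 13 kept barcodes of the mixed sample (10 in FYH, 2 in FYB and 1 in MY1) and in 8 of the young sample (3 in CH1 and 5 in CH2), and up to 77 UMIs in a single barcode of 2680. This minimum was set after seeing the values, so what follows is a description with no test. The nearest barcodes outside it held 7 COPA UMIs in the mixed and 9 in the young sample, and the nearest inside it held 11 in both. In FYH these 10 barcodes held 84.6% of 436 COPA counts, and COPA was at 2004 CPM with them and 341 CPM without. The other members did not go along: outside COPA the secretory genes summed to 3030 CPM in COPA-rich and 6774 CPM in the remaining mixed barcodes, and to 3002 CPM in COPA-rich and 5809 CPM in the remaining young ones. The other COPI genes were at 690.3 CPM in COPA-rich and 963 CPM in the remaining mixed barcodes, and at 614 CPM in COPA-rich and 1288 CPM in the remaining young ones. Those COPA-rich levels rest on 18 counts (mixed) and 9 counts (young) and are imprecise, so for the coat alone no difference is read from them.

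**Figure D5:**
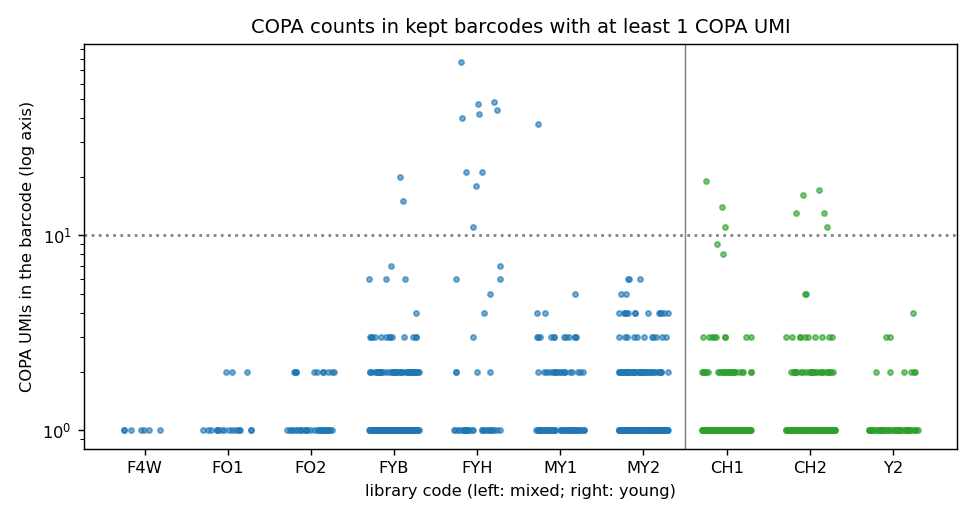
COPA/ALPHACOP UMIs (log axis) in each kept barcode with at least 1, by library code, mixed codes left of the line and young codes right of it, with a dotted line at 10 UMIs and random sideways spread. FYH holds 10 of the 13 mixed barcodes above the line, up to 77 UMIs, and CH1 and CH2 hold the 8 young ones.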

How the data were processed

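The authors deposited whole-number counts per barcode and gene with library codes, not normalised; aligner, build and UMI collapsing are not given in the sources used here. Per the labels each group has 1 sample. Barcode lists hold running numbers without sequences, so barcodes shared between libraries could not be counted. Counts of barcodes with at least 500 UMIs were summed per sample, code or papilin status and divided by the total (CPM). Ratios were taken with sums under 3 raised to 3, and genes reaching 50 counts in the 2 sums together were compared at 2-fold. Intervals are exact Poisson, Clopper-Pearson or conditional binomial. Doublets were not called. Python 3.11.15, numpy 2.4.6, scipy 1.17.1, pandas 2.3.3 and matplotlib 3.10.9 were used, and the ratio step was tested on simulated counts. Members and lists were chosen with earlier results of these data known. Genes named are the member with most counts in each role, the 5 highest and 5 lowest ratios per comparison, and members outside the pathway; others were named after their values were seen. Of the 49 members, 3 share their EVG identifier (the DAPMA1EVG names) with another gene, so counts may be split. Names come from the files alone. Alternatives are in the closing section.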

Additional observations from a re-analysis of the deposited data

Results flagged for a closer look

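Barcodes below 500 UMIs enter no comparison. In them, 3 members were at least 2-fold above their level in kept barcodes. COPE/EPSILONCOP was at 10.5 CPM in the mixed sample, against 3.24 CPM in kept barcodes (1 of 44 members with enough counts, beside 5.62% of all genes). SRPK2/SRPK was at 826 CPM in the young sample, against 318 CPM in kept barcodes, and ran from 818 to 836 CPM over its 3 codes. KDELR2/KDELR (DAPMA1EVG001280) was at 10.8 CPM in the young sample, against 2.16 CPM in kept barcodes (2 of 40 members, beside 17.6% of all genes).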

How the results depend on the processing

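No paired analysis was possible because each group has 1 sample. The summed mixed over young ratio of 1.19 was 1.34 with a minimum of 300 UMIs, 1.09 with 1000, 1.30 with barcodes thinned to 500 UMIs and, chosen after seeing the data, 1.10 without MY1 and MY2. Leaving out 1 code gave 1.11 (without Y2) to 1.30 (without FYB), with 1.27 without CH1, 1.24 without CH2 and 1.14 without MY2. Median-ratio scaling turned it to 0.914. The papilin ratio of the mixed sample (0.889) was turned to 1.06 by median-ratio scaling. It was 0.840 with 2 papilin UMIs, 0.953 with PAPLN alone, 0.847 without MY1 and MY2, and 0.860 to 0.951 without 1 code (MY2 and FYB). The young one (1.15) was 1.29 from 300 UMIs, 1.10 from 1000, 1.21 thinned, 1.20 with 2 papilin UMIs, 1.35 with PAPLN alone, and 1.10 to 1.24 without 1 code (CH2 and CH1). Of secretory genes past 2-fold, 7 between samples were 16 from 300 UMIs, 4 from 1000, 2 at 4-fold, and 6 to 14 without 1 code (11 without CH1 or CH2, 14 without FYB). From 300 UMIs, 58.4% of all tested genes passed, beside 16 of 41 members. The other counts here lack the all-gene share and are not read against genes at large. The 3 in papilin-positive mixed barcodes were 1 from 300 UMIs, from 1000 UMIs, with median-ratio scaling and at 4-fold, 6 with 2 papilin UMIs, and 5 with no count minimum or PAPLN alone, and 2 to 4 without 1 code. The 1 in young barcodes was 2 from 300 UMIs, with 2 papilin UMIs or with 10 counts as minimum, 4 thinned, 3 with no minimum, 5 with PAPLN alone, 0 at 4-fold, and 0 to 3 without 1 code (0 without CH2, 2 without Y2, 3 without CH1). The cause was not tested, beyond fewer genes or barcodes entering. Of 90 such values 44 stayed within the counting interval or 1.5 times the count. Of 792 values of named genes 140 moved beyond their counting interval and no gene past 2-fold changed direction. Ratios nearer to 1 crossed it in 10 of 69 values with median-ratio scaling and in 39 of 723 under the other alternatives. Depth limits the small codes most: 3 counts equal 74.9 CPM in F4W, 2.26 CPM in FYB.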

Other observations

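Barcodes with at least 10 COPA UMIs, 13 mixed and 8 young, are called COPA-rich. The class was set after seeing the values and is described with no test. Among the leading genes, those furthest above the remaining barcodes, FST, OTOP2 and ELOVL7 were shared by both samples. FST/CG32354 (DAPMA1EVG028319), named after follistatin, was at 13346 CPM in COPA-rich and 97.7 CPM in the remaining mixed barcodes, and at 7096 CPM in COPA-rich and 68.7 CPM in the remaining young ones. OTOP2/OTOPLA (DAPMA1EVG030256), named after otopetrin proton channels, was at 2723 CPM in COPA-rich and 41.0 CPM in the remaining mixed barcodes, and at 3548 CPM in COPA-rich and 34.8 CPM in the remaining young ones. ATP6V0A1/VHA100 (DAPMA1EVG034432), a subunit of the proton-pumping V-ATPase, was at 4372 CPM in COPA-rich and 193 CPM in the remaining mixed barcodes, and at 27907 CPM in COPA-rich and 366 CPM in the remaining young ones. ATP6V0A1 was among the leading genes in the young sample alone. Whether the gene named COPA here is one transcript, or shares counts with a neighbour, was not tested.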
